A study of Mus musculus with 6 samples.

Results

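The 10 genes described here encode transcription and chromatin regulators known for their roles in hematopoietic stem cells (HSCs): Hlf, Mecom, Hoxa9, Hoxb5, Meis1, Gata2, Tal1, Etv6, Mllt3 and Prdm16. They were chosen by gene symbol, and all 10 were among the 19978 genes of the deposited table. RNA was measured by Smart-seq2, a low-input method that copies and amplifies polyadenylated RNA, in libraries of 100 HSCs sorted from mouse bone marrow. Of the 6 libraries, 3 were wild type (WT) and 3 carried the genotype label Piezo1 cKO, for conditional knockout. Piezo1 codes for a cation channel opened by mechanical force. The comparison asks what the loss of Piezo1 does to transcripts in HSCs. Strain, age, sex, the Cre driver and the surface markers of the sort are not given in the sources used here. Whether libraries of the same genotype derive from different mice is not stated in the labels, so p-values measure the spread between these libraries only, and that spread may be technical.

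HSCs keep themselves and give rise to all blood lineages, and a small network of transcription factors holds them in that state. TAL1 and GATA2 bind enhancers together with RUNX1, LYL1, LMO2, FLI1 and ERG, while HOX proteins bind DNA with TALE homeodomain proteins such as MEIS1. HLF, MECOM and PRDM16 are known for high levels in long-lived stem cells, ETV6 is a repressor needed by adult HSCs, and MLLT3 (AF9) reads acylated histone H3 in elongation complexes.

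A promoter window of each of 4 members is printed because these genes formed the pairs detected in the same libraries, Hlf with Hoxa9 and Mllt3 with Prdm16. Each window is RefSeq sequence of build GRCm38.p6, runs from 250 bases before to 50 bases after the annotated start, and is written 5′ to 3′ on the gene's strand, which is the minus strand for all 4. Capitals mark a match to one of 5 motifs searched on both strands, a GATA motif (AGATAA), an ETS motif (CCGGAA), a MEIS motif (TGACAG), a HOX-PBX motif (TGATNNAT) and a PAR bZIP motif (TTACGTAA).
Hlf, chr11:90390868-90391167: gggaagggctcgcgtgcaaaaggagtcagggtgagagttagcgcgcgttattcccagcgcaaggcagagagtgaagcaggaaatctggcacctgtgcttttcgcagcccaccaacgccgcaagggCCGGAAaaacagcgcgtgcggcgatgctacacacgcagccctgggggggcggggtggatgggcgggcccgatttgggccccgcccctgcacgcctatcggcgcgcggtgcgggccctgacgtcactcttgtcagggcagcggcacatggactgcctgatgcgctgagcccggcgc
Hoxa9, chr6:52227321-52227620: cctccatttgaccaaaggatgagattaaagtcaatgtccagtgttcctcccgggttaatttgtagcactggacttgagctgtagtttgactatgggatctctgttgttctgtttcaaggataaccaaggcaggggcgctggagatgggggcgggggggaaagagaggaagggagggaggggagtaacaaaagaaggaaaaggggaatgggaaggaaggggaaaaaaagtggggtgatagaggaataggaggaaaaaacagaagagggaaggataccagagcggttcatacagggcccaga
Mllt3, chr4:88033358-88033657: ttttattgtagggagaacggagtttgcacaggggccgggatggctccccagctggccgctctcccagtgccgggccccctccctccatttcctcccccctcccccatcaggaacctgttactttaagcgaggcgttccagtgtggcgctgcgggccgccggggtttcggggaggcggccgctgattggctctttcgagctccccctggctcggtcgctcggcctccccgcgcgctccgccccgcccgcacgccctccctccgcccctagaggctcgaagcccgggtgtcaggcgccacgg
Prdm16, chr4:154636824-154637123: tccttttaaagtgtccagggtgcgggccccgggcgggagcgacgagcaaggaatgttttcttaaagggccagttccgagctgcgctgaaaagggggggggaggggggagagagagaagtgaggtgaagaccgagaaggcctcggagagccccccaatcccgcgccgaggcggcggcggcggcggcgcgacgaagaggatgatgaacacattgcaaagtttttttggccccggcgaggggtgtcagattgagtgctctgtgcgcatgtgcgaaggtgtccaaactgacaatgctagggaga
The Hlf window held 1 match, to the ETS motif, and the other 3 printed windows held none of the 5. These motifs occurred in 11.2% (GATA), 14.9% (ETS), 19.2% (MEIS), 8.85% (HOX-PBX) and 0.119% (PAR bZIP) of all 32851 promoter windows of that length. The E-box CANNTG, left in lower case because 72.3% of all windows hold it, was found 2 times in the Hlf window and 1 time in each of the other 3. A match describes letters and not a bound site. The printed windows of Hlf, Mllt3 and Prdm16 held 30, 29 and 24 CpG dinucleotides against a median of 7 over all windows, and that of Hoxa9 held 4. GC content was 67.3% for Hlf and 49.7% for Hoxa9, and 70.3% for Mllt3 and 61.0% for Prdm16, against a median of 52.7% over all windows. Mllt3 had a second window, chr4:87806274-87806573, which is not printed. It held 1 match to the MEIS motif, 3 E-boxes and 4 CpG dinucleotides, at a GC content of 44.7%. RefSeq windows were matched for 9 of the 10 members, all but Hoxb5.

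Values are given as FPKM, read fragments scaled to exon length and to the depth of the library, and a gene is called detected here at an FPKM of at least 1. The libraries were unequal in ways that bear on every value. Total counts were 18035239, 64794532 and 3907259 in WT 1, WT 2 and WT 3, and 31252820, 72116120 and 69972499 in labelled cKO 1, 2 and 3. The 100 most abundant genes took 46.1%, 30.2% and 76.1% of counts in WT 1, 2 and 3 and 29.8% to 31.7% in the labelled cKO libraries. Piezo1 went against the label in 1 library, labelled cKO 2, which had the highest FPKM of all, 8.81, while labelled cKO 1 had the lowest, 0.175, and labelled cKO 3 had 0.819, within the WT range of 0.539 to 3.97. The group is therefore called labelled cKO throughout. The labelled cell type was checked with 18 HSC marker genes. Ly6a, which encodes the stem cell antigen Sca-1, was detected in all 6 libraries, at an FPKM of 13.9 to 601. Kit, the stem cell factor receptor, reached 59.5 in labelled cKO 3 but 0.0107 to 2.53 in the others. Slamf1, which encodes CD150, was detected in WT 2, labelled cKO 2 and labelled cKO 3 and listed at 0 in labelled cKO 1. Markers of other blood cells were also present, and their part in the results was not tested. The summed FPKM of 15 granulocyte and monocyte markers ranged from 294 to 29857 in WT and, for labelled cKO libraries, from 868 to 37503, highest in WT 1 and labelled cKO 2, and was mostly S100a8, S100a9 and Camp, while Ly6g was listed at 0 in WT 1, labelled cKO 2 and labelled cKO 3. The summed FPKM of 10 erythroid markers ranged from 9909 to 21926 in WT and, for labelled cKO libraries, from 1680 to 2816, mostly globin, while Klf1 was listed at 0 in WT 2, WT 3 and labelled cKO 3 and Epor in WT 1, WT 3, labelled cKO 2 and labelled cKO 3. Summed FPKM reached 245 in WT and 174 in the labelled cKO for 7 neutrophil and monocyte progenitor markers, 86.3 and 157 for 7 B lineage markers, 862 and 183 for 7 T and NK markers, 1875 and 294 for 6 megakaryocyte markers and 14.4 and 21.2 for 10 stromal and endothelial markers. In bulk libraries, fewer cells of a type and less RNA per cell cannot be told apart.

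The HSC factors varied widely among libraries of the same genotype, and most were either well detected or almost absent in a given library. WT 2 detected 7 of the 10, whereas WT 1 detected 1 and WT 3 detected 0. Labelled cKO 1, 2 and 3 detected 4, 3 and 5. Over the 60 member values, 19 (31.7%) were at an FPKM of at least 5, 1 (1.67%) lay from 1 to 5, 33 (55.0%) lay above 0 and under 1, and 7 (11.7%) were listed at 0. The shares over all genes of the table were 13.4%, 8.53%, 47.4% and 30.6%. The number of members detected and the number of all genes detected did not rank the libraries alike: WT 3 had 5401 genes at an FPKM of at least 1, close to the 5727 of WT 2, and labelled cKO 1 had 3144, close to the 3117 of WT 1. In WT 3, with the lowest total count, that level can rest on few counts, as for Lyl1, at 1.18 from 14 counts. Genes detected in WT 3 are therefore less certain than those detected in WT 2. At an FPKM of at least 5, the members numbered 1, 7 and 0 in WT and 3, 3 and 5 in the labelled cKO.

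**Figure D1:**
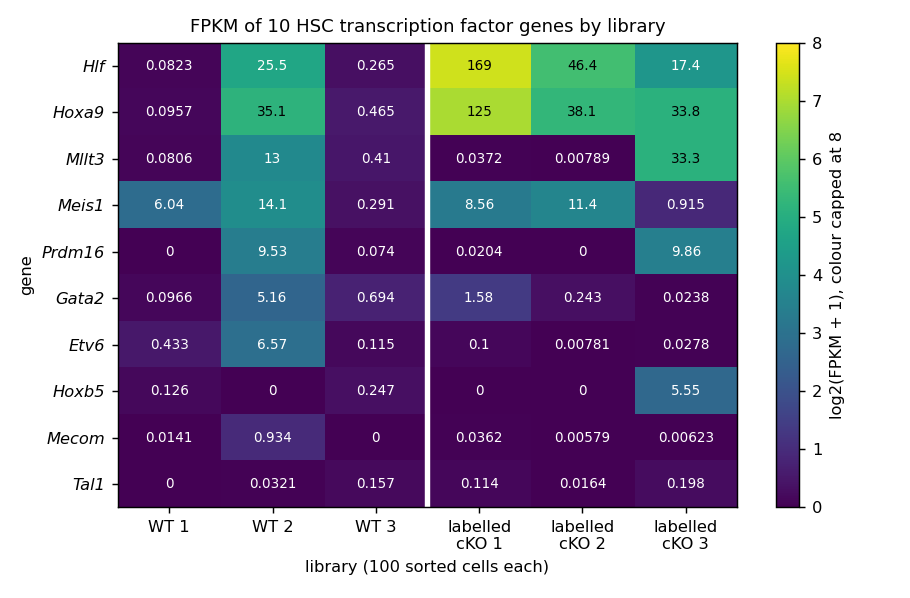
FPKM of the 10 factors (rows) in the 6 libraries (columns), coloured by log2(FPKM + 1) with the FPKM written in each cell. WT 2 and labelled cKO 3 hold the most detected factors, and the WT 1 and WT 3 columns are dark (low) except for Meis1 in WT 1, at 6.04.

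The summed FPKM of the 10 factors was 6.97, 110 and 2.72 in WT and 304, 96.2 and 101 in the labelled cKO. The groups overlapped, since WT 2 exceeded labelled cKO 2 and 3. Hlf and Hoxa9 made up much of these sums. Without them the sums were 6.79, 49.3 and 1.99 in WT and 10.4, 11.7 and 49.9 in the labelled cKO, so that WT 2 and labelled cKO 3 were then the high libraries. As counts, the 10 factors together received 1495, 60648 and 108 in WT and 72019, 51351 and 64025 in the labelled cKO. The 108 counts of WT 3 over 10 genes set the precision of every member value in that library. Reads were not tagged with molecular identifiers, so limits drawn from counts cover counting error only.

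**Figure D2:**
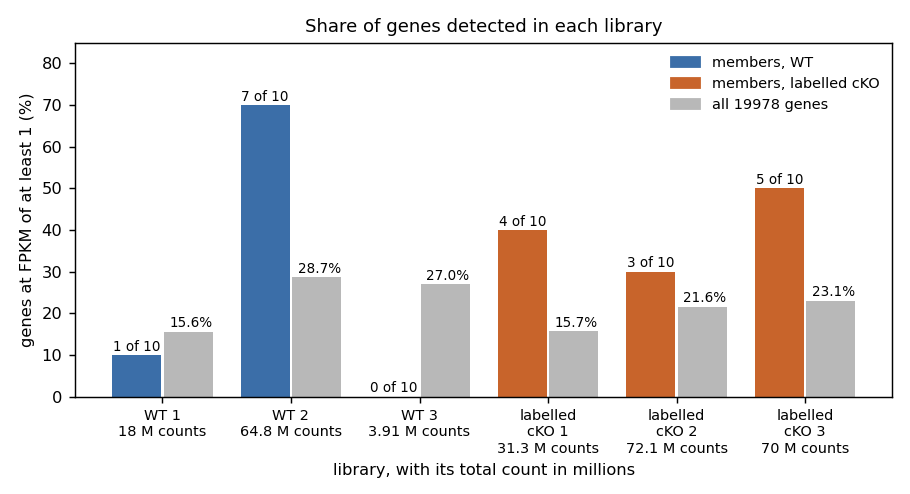
Share (%) of the 10 factors (coloured bars) and of all 19978 genes (grey bars) with an FPKM of at least 1 in each library, with the total count under each. WT 3 detected 0 factors and 5401 genes, while labelled cKO 1 detected 4 factors and 3144 genes. In WT 3 an FPKM of 1 can rest on few counts.

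Hlf, a PAR bZIP factor that marks the most primitive HSCs, showed FPKM values of 0.0823, 25.5 and 0.265 for WT 1, 2 and 3 and 169, 46.4 and 17.4 for labelled cKO 1, 2 and 3. Thus it was well detected in every labelled cKO library and in WT 2, and WT 2 lay between labelled cKO 3 and labelled cKO 2. WT averaged 8.62 ± 14.6 and the labelled cKO 77.5 ± 80.3 (SD, n = 3). Its counts were 12, 12339 and 10 in WT and 42152, 24700 and 9056 in the labelled cKO. On the log2(FPKM + 1) scale the labelled cKO was higher by 4.00, with replicate SDs of 2.60 in WT and 1.61 in the labelled cKO, and the difference did not pass the test (p = 0.2 by an exact permutation test, two-sided, whose smallest p for 3 against 3 libraries is 0.1).

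Hoxa9, a homeobox gene that promotes HSC expansion, followed the same libraries as Hlf. Its FPKM was 0.0957, 35.1 and 0.465 in WT and 125, 38.1 and 33.8 in the labelled cKO, again low in WT 1 and WT 3, with WT 2 inside the range of the labelled cKO. Group means were 11.9 ± 20.1 and 65.6 ± 51.5 (SD, n = 3; exact permutation p = 0.2). Of all genes of the table, 166 (0.831%) were detected in this set of 4 libraries and no other. Hlf and Hoxa9 were each other's nearest member in profile, at a root mean square difference of 0.45 in log2(FPKM + 1) over 6 libraries.

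Meis1, the TALE homeodomain partner of HOX proteins, had another pattern. Its FPKM was 6.04, 14.1 and 0.291 in WT and 8.56, 11.4 and 0.915 in the labelled cKO, so that it was detected in 2 libraries of each genotype. Labelled cKO 3, with 750 counts, lay just under the detection level, whereas WT 3 had 18 counts. It was the member detected in WT 1, where it received 1369 of the 1495 member counts. Group means were 6.80 ± 6.92 and 6.97 ± 5.44 (SD, n = 3; exact permutation p = 0.8). Its set of libraries was shared by 18 genes (0.0901% of the table).

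Hoxb5, whose expression marks long-term HSCs in mouse bone marrow, was detected in labelled cKO 3 only, at an FPKM of 5.55 from 1204 counts. It had 8 counts in WT 1 (FPKM 0.126) and 4 in WT 3 (FPKM 0.247), and was listed at 0 in WT 2, labelled cKO 1 and labelled cKO 2. A count of 0 allows up to 3 counts, which is an FPKM of 0.0149 in WT 2, 0.0283 in labelled cKO 1 and 0.0131 in labelled cKO 2. Labelled cKO 3 held 93.7% of its summed FPKM, and 637 genes (3.19% of the table) were likewise detected in that library alone. The genotypes overlapped (exact permutation p = 1).

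Gata2, a zinc finger factor required for HSC survival, showed FPKM values of 0.0966, 5.16 and 0.694 in WT against 1.58, 0.243 and 0.0238 in the labelled cKO. It was thus detected in WT 2 and, at the 1 member value between 1 and 5, in labelled cKO 1, where it had 320 counts. Group means were 1.98 ± 2.77 and 0.615 ± 0.840 (SD, n = 3; exact permutation p = 0.6).

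Tal1, the bHLH factor at the head of blood formation, was detected in no library. Its FPKM was 0, 0.0321 and 0.157 in WT and 0.114, 0.0164 and 0.198 in the labelled cKO, from 0, 11 and 4 and from 19, 6 and 68 counts. The 0 of WT 1 allows an FPKM of up to 0.0308. The groups overlapped (exact permutation p = 0.6), and a difference between values from so few counts was not detectable here.

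Mecom, which encodes the zinc finger factor EVI1 and its longer PR-domain form, came close to detection in WT 2 only, at an FPKM of 0.934 from 842 counts. The other libraries lay at 0.0141 and 0 in WT and at 0.0362, 0.00579 and 0.00623 in the labelled cKO, from at most 18 counts. The count of 0 in WT 3 allows an FPKM of up to 0.0416. WT 2 held 93.7% of the summed FPKM of Mecom, and the groups overlapped (exact permutation p = 0.7). Mecom and Tal1 shared the state of being under an FPKM of 1 everywhere with 9672 genes (48.4% of the table).

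Prdm16, a PR-domain factor related to Mecom that maintains HSCs, was present in 1 library of each genotype. Its FPKM was 0, 9.53 and 0.0740 in WT and 0.0204, 0 and 9.86 in the labelled cKO, so that the high values of WT 2 and labelled cKO 3 differed by 1.03-fold. The counts behind them were 6432 and 7149, against at most 8 elsewhere. The 0 values allow an FPKM of up to 0.0145 in WT 1 and 0.00393 in labelled cKO 2. Group means were 3.20 ± 5.48 and 3.29 ± 5.69 (SD, n = 3; exact permutation p = 1).

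Mllt3, the chromatin reader whose level sustains human HSCs in culture, was detected in the same 2 libraries as Prdm16. Its FPKM was 0.0806, 13.0 and 0.410 in WT and 0.0372, 0.00789 and 33.3 in the labelled cKO. The 2 high libraries had 11262 and 31091 counts and the other 4 had 8 to 28. Group means were 4.48 ± 7.34 and 11.1 ± 19.2 (SD, n = 3; exact permutation p = 1). The set of WT 2 and labelled cKO 3 held 383 genes (1.92% of the table).

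Etv6, the ETS-family repressor, was the 1 member whose genotypes did not overlap. Its FPKM was 0.433, 6.57 and 0.115 in WT and 0.100, 0.00781 and 0.0278 in the labelled cKO, so that the lowest WT library and the highest labelled cKO library lay close together, at 4 and 23 counts. WT 2 held 90.6% of its summed FPKM. Every labelled cKO library lay below every WT library for 8.6% of all genes of the table and above for 1.87%, and 1 lower and 0 higher of 10 members stand against those shares. Of the 3 members that passed the filter on low values described with the tests, 0 had groups that did not overlap, where 6.37% of filtered genes were higher and 5.18% lower in every labelled cKO library. Group means were 2.37 ± 3.64 and 0.0453 ± 0.0487 (SD, n = 3), and the exact permutation p was 0.1, the smallest that 3 against 3 libraries can give. WT 2 was the library where Etv6 was detected, as it was alone for 1062 genes (5.32%).

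Across the libraries the mean FPKM, a level per length of exon, placed Hlf first at 43.1, then Hoxa9 at 38.8, Mllt3 at 7.80, Meis1 at 6.89, Prdm16 at 3.25, Gata2 at 1.30, Etv6 at 1.21, Hoxb5 at 0.987, Mecom at 0.166 and Tal1 at 0.0861. These means rest on few libraries, since labelled cKO 1 held 65.3% of the summed FPKM of Hlf and labelled cKO 3 held 71.2% of that of Mllt3. Library by library, Hlf was above Hoxa9 in 2 of 6, with a mean log2 difference of -0.15, and Mllt3 was above Meis1 in 2 of 6, at -0.89, the opposite of their order by mean. No pair of neighbours in this order passed an adjusted p of 0.05 over the 9 pairs and 6 libraries (two-sided exact paired permutation tests of log2(FPKM + 1)). The smallest p that this exact test can give with 6 libraries is 0.0313. A single pair at that floor has an adjusted p of 0.281, so a pass was nearly impossible and its absence says little about the order. The nearest to a difference was Hoxa9 above Mllt3, higher in 6 of 6 libraries with a mean log2 difference of 2.28 ± 3.05 (SD, n = 6; exact p = 0.0313, adjusted p = 0.281). Some of these libraries were near ties, with FPKM of 0.0957 against 0.0806 in WT 1, 0.465 against 0.410 in WT 3 and 33.8 against 33.3 in labelled cKO 3. The values of WT 1 and WT 3 rest on at most 28 counts. The order depends in part on the length used. The deposited FPKM divides by all annotated exon bases of a gene, which is 2.18 times the longest coding transcript for Mecom, 1.98 times for Mllt3 and 1.73 times for Hoxa9, but 1.18 times for Hlf. Per base of the longest coding transcript, the mean level of Hoxa9 was 67.0 and that of Hlf 51.0, and Hoxb5, at 1.45, passed Etv6, at 1.27.

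All 10 loci were compared with the GENCODE M21 annotation of GRCm38, whose start and end 9 of the 10 share, Prdm16 being the exception with an end at 154636866 instead of 154636873. On these coordinates Hlf spans chr11:90336536-90390895, Hoxa9 chr6:52223100-52231089, Hoxb5 chr11:96303336-96306121, Meis1 chr11:18879817-19018985 and Gata2 chr6:88193891-88207032. Tal1 spans chr4:115056426-115071755, Mecom chr3:29951296-30548008, Prdm16 chr4:154316125-154636866, Mllt3 chr4:87769925-88033364 and Etv6 chr6:134035700-134270158. The transcripts the table lists for Hoxb5 and Prdm16 include 0 that the annotation calls coding, although their exons are counted in the gene's value. Strand marking is not stated for these libraries, so reads of a member and of an overlapping gene on the other strand could not be told apart where exons overlap.

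Genes annotated at the same loci did not all follow the members. Hoxb5os, antisense to Hoxb5 with 100 shared exon bases, had 1304 counts in labelled cKO 3 and 0 elsewhere, the same library in which Hoxb5 had its 1204 counts. Mecomos, antisense to Mecom with 81 shared exon bases, had 925 counts in WT 2 and 0 elsewhere, as Mecom had its 842 there. The levels of Hoxb5 and Mecom are uncertain to that extent. Inside Meis1, Gm37818 on the same strand shares 1029 of its 3169 exon bases with it and had 9411 counts in labelled cKO 2 and 0 to 7 elsewhere, beside 9592 counts of Meis1 in that library. Gm16140, antisense with 896 shared exon bases, had 3169 counts in WT 2 and 0 elsewhere, beside 10735 of Meis1. The levels of Meis1 in labelled cKO 2 and WT 2 are likewise uncertain to the extent of these larger overlaps. Gm43984, which lies within Etv6 and shares no exon bases with it, had 4558 counts in WT 2 but also 3192 in labelled cKO 3, where Etv6 had 13.

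**Figure D3:**
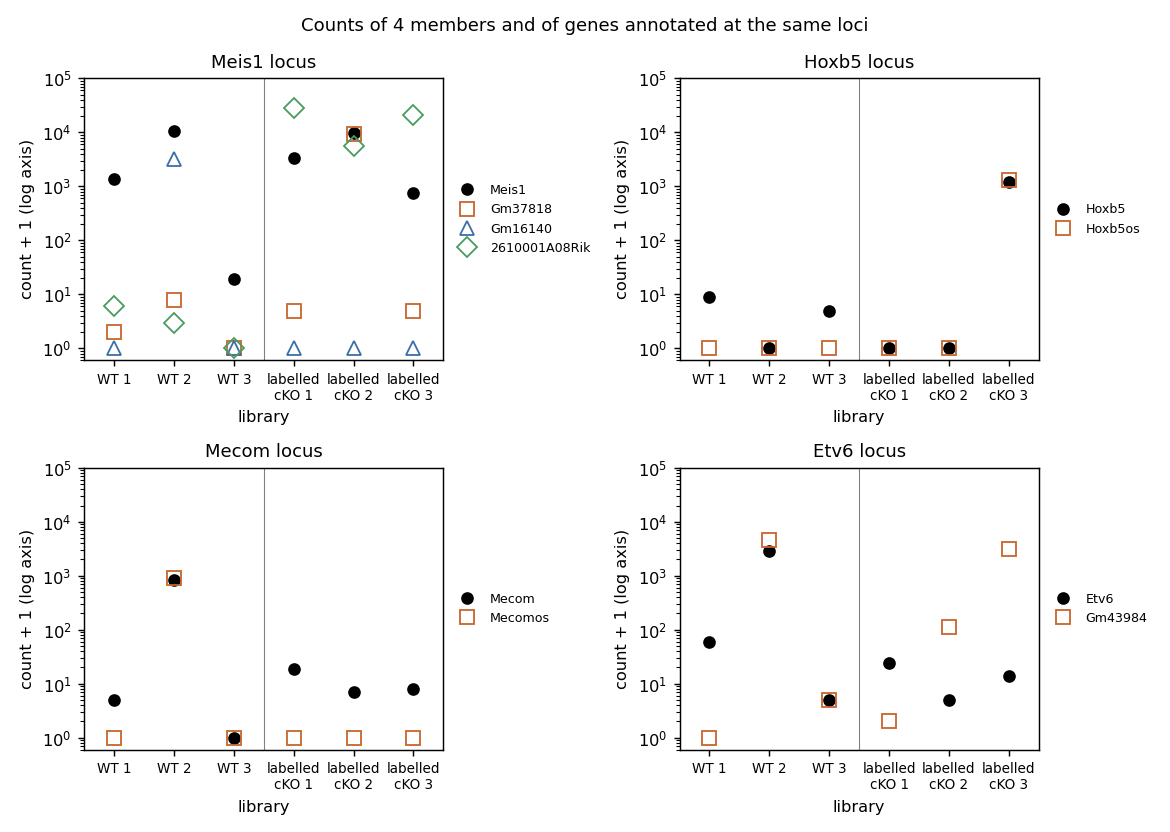
Counts plus 1 on a log axis, by library, for Meis1, Hoxb5, Mecom and Etv6 (filled circles) and for genes annotated at the same loci (open symbols). Hoxb5os is high only where Hoxb5 is, in labelled cKO 3, and Mecomos only where Mecom is, in WT 2, whereas Gm43984 is high in labelled cKO 3 where Etv6 is not.

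Genes that work with these factors were described in the same way. Of 14 genes for the other stem cell factors and their cofactors, WT 1, 2 and 3 detected 8, 12 and 7 and labelled cKO 1, 2 and 3 detected 5, 8 and 7. In edgeR's quasi-likelihood test (Benjamini-Hochberg over 4173 genes) 0 of the 11 tested passed, as 0.0% of all genes did. The tested genes with the smallest unadjusted p were Cbfb, Ldb1 and Lmo2. Cbfb, the DNA-affinity subunit of RUNX1, had FPKM values of 1.28, 138 and 2.82 in WT against 0.520, 0.195 and 0.0546 in the labelled cKO (log2 fold change -6.97, SE 3.13, edgeR adjusted p = 0.692). Ldb1, which bridges TAL1 complexes, had 1.07, 4.26 and 1.60 against 0.481, 0.0542 and 0.0501 (-3.08, SE 1.73, edgeR adjusted p = 0.708). Of the 14 genes, 2 (these) were lower and 1, Tcf4, was higher in every labelled cKO library than in every WT library, where 8.6% and 1.87% of all genes were. Tcf4, an E-protein gene named after its values were seen, had 0.0565, 0.0103 and 0.236 against 0.271, 2.61 and 2.51. Lmo2, the adaptor of the TAL1 complex, had 893, 73.3 and 3.22 against 0.362, 94.5 and 7.89 (-3.14, SE 2.30, edgeR adjusted p = 0.734). Thus WT 1, which lacked most members, held the highest Lmo2. The median difference of log2(FPKM + 1) over the 14 genes was -0.39, against -0.05 over all genes of the table.

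Of 21 other HOX and TALE genes in the table, 9 were detected in any library, 1, 5 and 0 in WT and 1, 2 and 7 in the labelled cKO. Of these, 3 passed the filter, Hoxa10 and Hoxa5 among them, and 0 passed the test. Hoxa5, a neighbour of Hoxa9 in the same cluster, had FPKM values of 0.231, 36.5 and 0.718 in WT against 0, 56.5 and 24.2 in the labelled cKO. It was therefore listed at 0 in labelled cKO 1, the library with the highest Hoxa9 (log2 fold change 1.62, edgeR adjusted p = 0.815). Hoxa10 had 0.106, 4.82 and 0 against 0.0461, 1.25 and 9.54 (1.52, edgeR adjusted p = 0.775). Labelled cKO 3 was the library with most HOX genes, Hoxb5 among them. The median log2 difference over the 21 genes was 0.01.

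Of 14 relatives by protein family, 8 were detected in any library and 0 of 2 tested passed. Elf1, an ETS relative of Etv6, had FPKM values of 0.300, 21.5 and 0.952 in WT against 60.3, 23.3 and 83.7 in the labelled cKO (log2 fold change 3.35, edgeR adjusted p = 0.734). It was the 1 of these 14 genes that was higher in every labelled cKO library, and 2 were lower, where 1.87% and 8.6% of all genes were. Lyl1, the closest relative of Tal1, had 0.101, 58.3 and 1.18 against 256, 0 and 5.81 (2.69, edgeR adjusted p = 0.750). It was thus detected in 4 libraries, in WT 3 from 14 counts only, while Tal1 was in none. The median log2 difference over the 14 genes was -0.08.

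Of 14 partners of MLLT3 in elongation and DOT1L complexes, WT detected 1, 9 and 1 and the labelled cKO 5, 4 and 5, and 0 of 4 tested passed. Dot1l, the histone H3 methyltransferase that MLLT3 recruits, had FPKM values of 0.250, 3.22 and 0.313 in WT against 2.56, 0.770 and 28.2 in the labelled cKO (log2 fold change 3.42, edgeR adjusted p = 0.734). Its highest library was labelled cKO 3, as for Mllt3. Mllt10, another DOT1L partner, had 0.540, 8.71 and 0.966 against 120, 49.2 and 0.193 (4.58, edgeR adjusted p = 0.724) and so was low in that library. Bcor, a corepressor, had 9.88, 2.07 and 0.647 against 0.155, 48.0 and 0.0443 (2.11, edgeR adjusted p = 0.777). Of the 14 partners, 0 were higher and 3 lower in every labelled cKO library than in every WT library. Over all genes of the table these shares were 1.87% and 8.6%. The median log2 difference over the 14 genes was -0.08.

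Of the 18 HSC surface and identity genes, WT detected 3, 13 and 8 and the labelled cKO 4, 10 and 8, and 0 of 6 tested passed. Ifitm1, an interferon-induced membrane protein, had FPKM values of 7.06, 1518 and 28.5 in WT against 919, 2196 and 3407 in the labelled cKO (log2 fold change 2.55, edgeR adjusted p = 0.734). It was thus far higher in the 4 libraries in which Hlf and Hoxa9 were detected than in WT 1 and WT 3. Of the 18 genes, 0 were higher and 4 lower in every labelled cKO library than in every WT library. Over all genes of the table these shares were 1.87% and 8.6%. The median log2 difference over the 18 genes was 0.10.

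**Figure D4:**
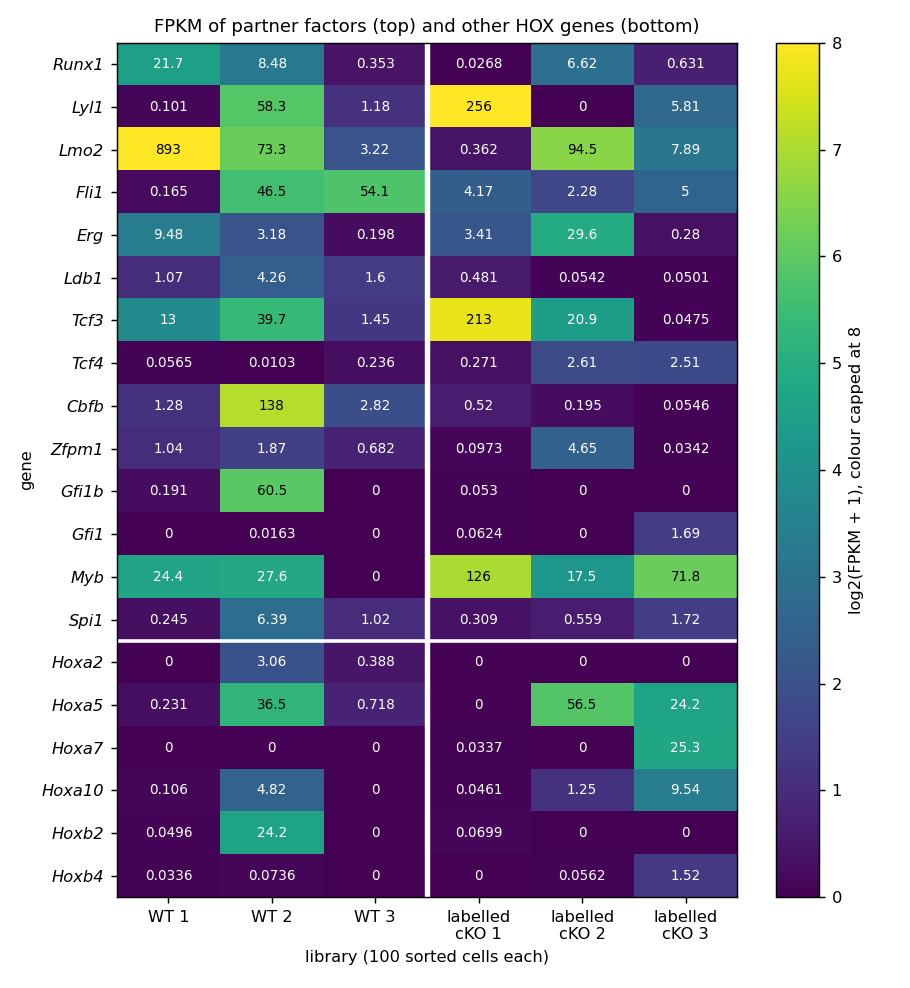
FPKM by library, written in each cell and coloured by log2(FPKM + 1) up to a ceiling of 8, for the 14 other stem cell factors and cofactors (top) and the 6 other HOX genes detected in at least 1 library (bottom). WT 2 detected 12 of the 14 stem cell factors and cofactors, and Hoxa5, Hoxa7, Hoxa10 and Hoxb4 were detected in labelled cKO 3.

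The 5 tested genes whose profile lay nearest to the mean profile of Hlf, Hoxa9 and Meis1 were Sfr1, Btf3, Becn1, Rpl9-ps7 and U2surp, at root mean square differences of 0.39, 0.42, 0.42, 0.43 and 0.45 in log2(FPKM + 1) over 6 libraries. Becn1, an autophagy gene, had FPKM values of 0.473, 24.6 and 1.40 in WT against 85.7, 28.4 and 13.3 in the labelled cKO, low in WT 1 and WT 3 like Hlf and Hoxa9.

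No member passed the test between the genotypes. Hlf, Hoxa9 and Meis1 passed the filter of an FPKM of at least 1 in at least 3 libraries of either genotype. Hlf and Hoxa9 did so with WT 2 as their only WT library, so the filter itself favoured positive fold changes for them. In edgeR's quasi-likelihood test over the 4173 genes that passed it, the log2 fold changes of labelled cKO over WT were 3.72 for Hlf (SE 2.46, adjusted p = 0.734), 3.00 for Hoxa9 (SE 2.46, adjusted p = 0.736) and 0.43 for Meis1 (SE 2.42, adjusted p = 0.956). The median over all genes in this fit was 1.10, so fold changes are read relative to that, and Meis1 lay below it. In the same test 0.0% of the 4173 genes were called and 6.88% had an unadjusted p under 0.05, to which no member belonged.

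The other 7 members were taken from the same test over all 19978 genes, in which 0.816% of genes were called and the median fold change was 0.17. Hoxb5 had a log2 fold change of 5.65 (SE 2.78, edgeR adjusted p = 0.417) and was the 1 member with an unadjusted p under 0.05, at 0.0422, where 11.6% of all genes were. That value rests on labelled cKO 3, without which it was -5.85. Etv6 had -4.50 (SE 2.73, edgeR adjusted p = 0.509) and -1.36 without WT 2. Mecom had -3.01 (SE 1.89, edgeR adjusted p = 0.525) and 2.14 without WT 2. Tal1 had 2.85 (SE 1.72, edgeR adjusted p = 0.507), from at most 68 counts in a library, and 0.63 when scaled by library totals only. Mllt3 had 2.54 (SE 2.74, edgeR adjusted p = 0.663) and Prdm16 1.26 (SE 2.86, edgeR adjusted p = 0.871). Without labelled cKO 3 these became -6.36 and -6.98, and without WT 2 they became 7.55 and 8.78. Both transcripts were detected in 1 library of each genotype. Gata2 had -0.40 (SE 2.45, edgeR adjusted p = 0.958) and 2.74 without WT 2.

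The spread limits what these tests can show. With standard errors of 1.72 to 2.86 on the log2 scale, even large differences did not pass, such as the 5.65 of Hoxb5 (edgeR adjusted p = 0.417). DESeq2 called Hlf in the fit over the filtered genes, at 4.93 (SE 1.68, adjusted p = 0.0432). There it called 8.71% of the 3421 genes to which it gave an adjusted p. In its fit over all genes it called Etv6, at -5.10 (SE 1.76, adjusted p = 0.0301). There it gave an adjusted p to only 5756 genes, 5 members among them, and called 14.2% of those genes. In that second fit the DESeq2 adjusted p of Hlf was 0.161. The median difference of log2(FPKM + 1) over the 10 members was 0.15, with 6 above 0 and 4 below, against -0.05 over all genes of the table.

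**Figure D5:**
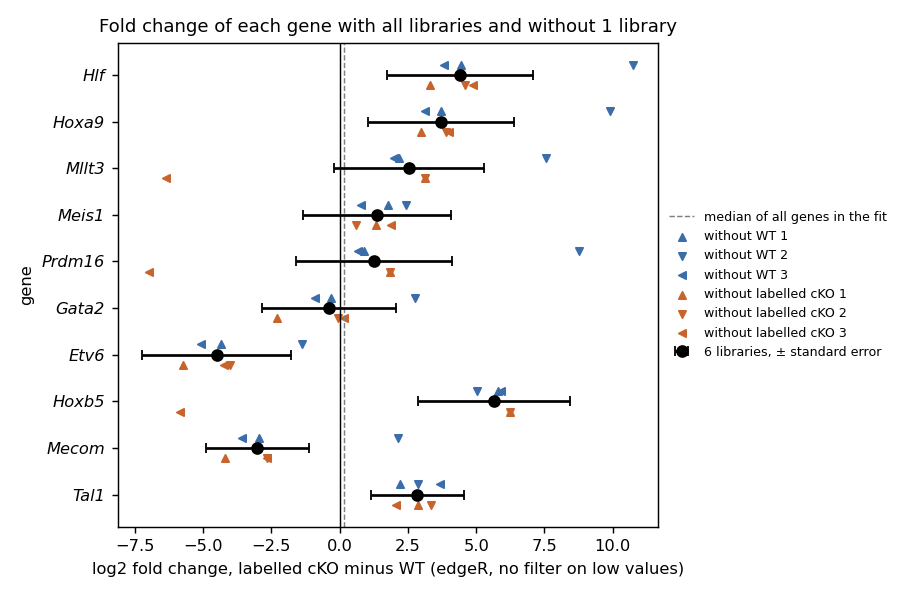
log2 fold change of labelled cKO over WT for each factor from edgeR over all 19978 genes, with no filter (points), its standard error (bars) and the values obtained when 1 library was left out (triangles). The solid line is at 0 and the dashed line at the median of all genes in the fit, 0.17. Hlf, Hoxa9, Meis1, Tal1 and Etv6 keep their side of 0 throughout, while Hoxb5, Mllt3, Prdm16 and Gata2 cross it without labelled cKO 3. Gata2 and Mecom cross it without WT 2. In the fit over the filtered genes, not drawn here, Meis1 also crossed 0, at -0.70 without labelled cKO 1.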

How the data were processed

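RNA was measured in 6 libraries, 3 WT and 3 labelled Piezo1 cKO, grouped by the genotype label. The authors deposited 1 table of raw read counts per gene and of FPKM values. The tools named, without roles, are StringTie 2.1.6, HISAT2 2.2.1, cutadapt 1.9, edgeR and DESeq2, and the build GRCm39, per the submitters' processing notes. The deposited coordinates match GENCODE M21 on GRCm38, with the same start and end for 17584 of 19953 matched genes, and are read as GRCm38. The counting method is not stated in the labels. Of the members' counts from 1 to 40, 13 of 28 were multiples of 4, as were 44.1% over all genes, so precision at low counts may be overstated. Dividing counts by FPKM showed that the authors' FPKM uses all annotated exon bases of a gene. For the 3 counts that a count of 0 allows, FPKM was computed on the same lengths.

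Genes with an FPKM of at least 1 in at least 3 of 6 libraries (4173 of 19978) were tested with edgeR 4.0.16 (quasi-likelihood, TMM, R 4.3.3), genotype as the only term, Benjamini-Hochberg adjustment at 0.05. Members outside the filter were taken from the fit over all genes. Each standard error is the log2 fold change divided by the root of its F statistic. Single genes were compared by two-sided exact permutation tests on log2(FPKM + 1). Alternatives used DESeq2 1.42.0, limma 3.58.1, other scalings and filters, counts divided by 4, a total count covariate, a replicate block and left-out libraries. The tests were tested on simulated data. The simulated spread between libraries was set far below the spread seen here, so that check does not show how the tests perform on these libraries. Motifs were searched with Python 3.11.15 in RefSeq promoter windows.

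All 10 members are named, with the 3 tested genes of smallest unadjusted p in each related list and the 5 genes of nearest profile. Members and lists were chosen with earlier results of these data known. Genes named at the members' loci, and Kit, Ly6a and Slamf1 among the markers, were chosen after their values were seen. Some genes that this rule names are not reported here.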

Additional observations from a re-analysis of the deposited data

How the results depend on the processing

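The count of members past the threshold was 0 with edgeR and in every alternative but the DESeq2 ones, the replicate block (0) and each left-out library included; DESeq2 gave 1, Hlf, and DESeq2 with no filter, added after seeing the data, gave 1, Etv6. The median log2 fold change of the 3 filtered members, 3.00, was 5.12 with limma at a pseudocount of 0.1 and 6.30 with the replicate block. It was 1.66 to 8.28 with 1 library left out, lowest without labelled cKO 1 and highest without WT 2. The medians over all genes were 1.10, 0.59, 0.77, 0.10 and 2.93 in these fits. The filter favoured a positive value, since Hlf and Hoxa9 passed it mainly through the labelled cKO. Over all 10 members with no filter the median was 1.95, against 0.17 over all genes. WT 3 detected 1 member at an FPKM of at least 0.5 and 0 at 1. Hlf, Hoxa9, Tal1 and Etv6 kept their direction in the 17, 17, 14 and 15 alternatives run for each, with leave-one-out ranges of 1.98 to 9.22, 1.66 to 8.28, 2.08 to 3.67 and -5.72 to -1.36. Tal1 nevertheless moved from 2.85 to 0.63 with library totals only and to 0.0610 with limma on log2(FPKM + 1), a scale that understates changes of low genes. The other 6 reversed in at least 1, and the cause was not tested. Meis1 went to -0.0253 with median-of-ratios scaling, -0.0255 with DESeq2, -0.66 without WT 1 and WT 3, -0.30 with the total count covariate and -0.70 to 1.22 with 1 library left out. Prdm16 went to -0.00990 and -0.16 with limma at pseudocounts of 1 and 0.1, -1.31 without WT 1 and WT 3, -0.19 with the total count covariate and -6.98 to 8.78 with 1 library left out. Mllt3 went to -0.43 with limma at 0.1, -0.0651 with the replicate block and -6.36 to 7.55 with 1 library left out. Mecom went to 0.72 with the replicate block and -4.21 to 2.14 with 1 left out, Gata2 to -2.30 to 2.74 and Hoxb5 to -5.85 to 6.24. The labels do not say that same-numbered libraries pair, so the numbers were not taken as pairs. Same-numbered libraries correlated at 0.126, 0.151 and -0.155 in their deviations from the group means, and unlike-numbered ones at -0.273 to 0.215. With so few libraries these correlations cannot decide whether the numbers pair. Low counts limit WT 3 most, with 108 member counts, and values from under 40 counts elsewhere.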

Other observations

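Inside Meis1, at chr11:19005607-19006473 on the same strand and sharing no exon bases with it, the table holds 2610001A08Rik, a gene model that the annotation marks as still to be experimentally checked. It was singled out after its values were seen. Its counts were 5, 2 and 0 in WT 1, 2 and 3 and 27943, 5514 and 20990 in labelled cKO 1, 2 and 3, so the groups did not overlap, while Meis1 itself had 1369, 10735 and 18 in WT and 3372, 9592 and 750 in the labelled cKO. Because it was chosen for this pattern, the values are a description, with no test.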
